A study of Rattus norvegicus with 8 samples.

Results

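The miRNAs described here were the rat miR-219a and miR-338 miRNAs, taken as every miRNA of the array named rno-miR-219a or rno-miR-338 with any precursor or arm suffix. The rule found 5 of the 758 rat miRNAs on the array, and used no measured value. rno-miR-219a-5p, rno-miR-219a-2-3p, rno-miR-338-3p and rno-miR-338-5p were detected on all 8 arrays, and rno-miR-219a-1-3p was detected on none. Small RNA of the medial vestibular nucleus (MVN), the brainstem nucleus that receives signals from the balance organ, was measured on 1-color Agilent miRNA arrays in 4 groups of 2 arrays: unilateral vestibular deafferentation (UVD) 4 d after surgery, UVD 4 h, sham operation (SO) 4 d and SO 4 h. All animals were male Sprague–Dawley rats, 7 weeks old, and every array held the pooled left MVNs of 3 of them. The UVD animals had the left labyrinth opened and treated with ethanol; the SO animals had the same approach to the left ear without the opening and the ethanol. Both surgeries therefore injured the ear, and no group of unoperated animals was analysed here. The comparisons ask which miRNAs differ in the deafferented nucleus early and late in vestibular compensation, the recovery of balance after the loss of one labyrinth.

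miRNAs are short RNAs that bind messenger RNAs mainly through their seed, the bases near the 5′ end, and lower the output of those messengers. miR-219 and miR-338 are known from mouse and rat as miRNAs of oligodendrocytes, the cells that make myelin, and they help oligodendrocyte precursors stop dividing and mature, partly by repressing messengers that keep the precursor state, such as Sox6 and Hes5 for miR-219 in the mouse. Each miRNA hairpin gives a 5p and a 3p arm, of which one is often far more abundant than the other. The 4 detected miRNAs were themselves the oligodendrocyte markers used here, so the cell type that carried them in these samples rests on that background and was not measured. In pooled tissue, fewer oligodendrocytes and less of the miRNA in each oligodendrocyte cannot be told apart.

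The mature sequences are shown because the seed and the shared arm set what each measurement can resolve. They were taken from RefSeq on the rat GRCr8 assembly, where all 5 miRNAs were found. The seed, bases 2 to 8, is in capitals.
rno-miR-219a-5p: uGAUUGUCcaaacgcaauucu
rno-miR-219a-2-3p: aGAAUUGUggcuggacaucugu
rno-miR-219a-1-3p: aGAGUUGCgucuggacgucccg
rno-miR-338-3p: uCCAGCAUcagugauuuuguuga
rno-miR-338-5p: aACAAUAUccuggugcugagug
The 5 seeds differed from each other, and none was shared with another of the 685 array miRNAs that had a sequence in RefSeq, of 758 in all. The seeds of rno-miR-219a-5p and rno-miR-219a-2-3p, the arms of 1 hairpin, were GAUUGUC and GAAUUGU.

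The hairpins are shown with both arms in capitals, since they define which arms were made together.
Mir219-2: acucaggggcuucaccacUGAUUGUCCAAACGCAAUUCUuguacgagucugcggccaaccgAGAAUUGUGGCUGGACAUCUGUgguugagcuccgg
Mir219a1: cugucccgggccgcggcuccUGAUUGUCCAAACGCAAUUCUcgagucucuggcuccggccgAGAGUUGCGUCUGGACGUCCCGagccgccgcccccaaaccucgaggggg
Mir338: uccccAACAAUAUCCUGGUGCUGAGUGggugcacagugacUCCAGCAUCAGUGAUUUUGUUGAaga
Mir219-2 lay at chr3:33516504-33516599 on the minus strand of GRCr8, and overlapped the protein-coding gene Cercam, a long noncoding RNA gene and Mir2964 on the other strand. Mir219a1 lay at chr20:4831580-4831689 on the plus strand, within 10 kb of Rxrb, Slc39a7, Hsd17b8 and Ring1. Mir338 lay at chr10:105796342-105796407 on the minus strand and overlapped Aatk, and Mir3065 on the other strand. The 21 bases of rno-miR-219a-5p were identical in Mir219-2 and Mir219a1, so its signal could come from either hairpin. The 3p arms can be told apart: rno-miR-219a-1-3p and rno-miR-219a-2-3p differed at 7 of 22 positions.

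The arms of the hairpins were not detected alike. rno-miR-219a-2-3p, from Mir219-2, had a total gene signal of 3236 to 4903 over the 8 arrays, before any normalization. rno-miR-219a-1-3p, from Mir219a1, was detected on 0 of 8 arrays. Of its 4 probes, only 1 had a spot well above background, which was 1 spot of 4 on UVD 4 h replicate 1. The lowest signal of a detected miRNA was 1.76 to 2.66 on an array, so this miRNA was not measurable at these levels. The miRNAs made from the opposite strand of the same loci, rno-miR-219b opposite rno-miR-219a-2-3p and rno-miR-3065-5p and rno-miR-3065-3p opposite the arms of Mir338, were also detected on 0 of 8 arrays, although they covered 20, 20 and 19 of the same bases.

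The 8 arrays had no saturated spot and detected 378 to 430 miRNAs each. Their slide row and column were read from the scanner headers, and whether all lay on the same slide was not checked. The UVD arrays were in 1 slide row and the SO arrays in the other, and the 4 d and 4 h arrays were in different columns. Group and position on a slide therefore cannot be told apart. Of 758 miRNAs, 422 were tested, each with a detection flag on 2 arrays of some group. With 2 pools per group, the number of arrays limits the precision: between the arrays of one group, the median miRNA was 0.09 to 0.15 apart (log2 units).

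Intensities below are quantile normalized and linear. Quantile normalization gives all arrays the same set of values, so the value of a miRNA follows from its place in the order of signals on that array, and the same value can recur on several arrays. rno-miR-219a-5p, the arm shared by both miR-219a hairpins, had an intensity of 27832 and 23574 on the UVD 4 d arrays and 27832 and 26530 on the UVD 4 h arrays, against 29054 and 33707 on the SO 4 d arrays and 29054 and 29054 on the SO 4 h arrays. All 4 UVD arrays were below all 4 SO arrays. It stood at places 4 and 7 of the signal order on the UVD 4 d arrays and 4 and 5 on the UVD 4 h arrays, against places 3 and 1 on the SO 4 d arrays and 3 and 3 on the SO 4 h arrays. Among the 422 tested miRNAs, 10 had all 4 UVD arrays on one side of all 4 SO arrays, in either direction (2.37%).

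rno-miR-219a-2-3p, the 3p arm of Mir219-2, had 3820 and 3658 on the UVD 4 d arrays and 3820 and 4180 on the UVD 4 h arrays, against 4180 and 3957 on the SO 4 d arrays and 3658 and 4180 on the SO 4 h arrays. The UVD 4 d arrays were below the SO 4 d arrays, and at 4 h the groups overlapped. rno-miR-338-3p, the 3p arm of Mir338, had 21949 and 18049 on the UVD 4 d arrays and 21949 and 23574 on the UVD 4 h arrays, against 21949 and 21949 on the SO 4 d arrays and 21949 and 23574 on the SO 4 h arrays. Its low value was that of 1 UVD 4 d array, and the groups overlapped or touched at both timepoints.

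rno-miR-338-5p, the other arm of Mir338, had 102.9 and 91.6 on the UVD 4 d arrays and 95.7 and 102.9 on the UVD 4 h arrays, against 89.1 and 105.2 on the SO 4 d arrays and 76.5 and 88.4 on the SO 4 h arrays. The SO 4 h arrays were the lowest and did not overlap with the UVD 4 h arrays. Its place in the signal order was between 192 and 215 on the 8 arrays, whereas rno-miR-338-3p was between places 7 and 11. Probes differ in how brightly they report a molecule, so these places are not a ratio of the arms.

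**Figure D1:**
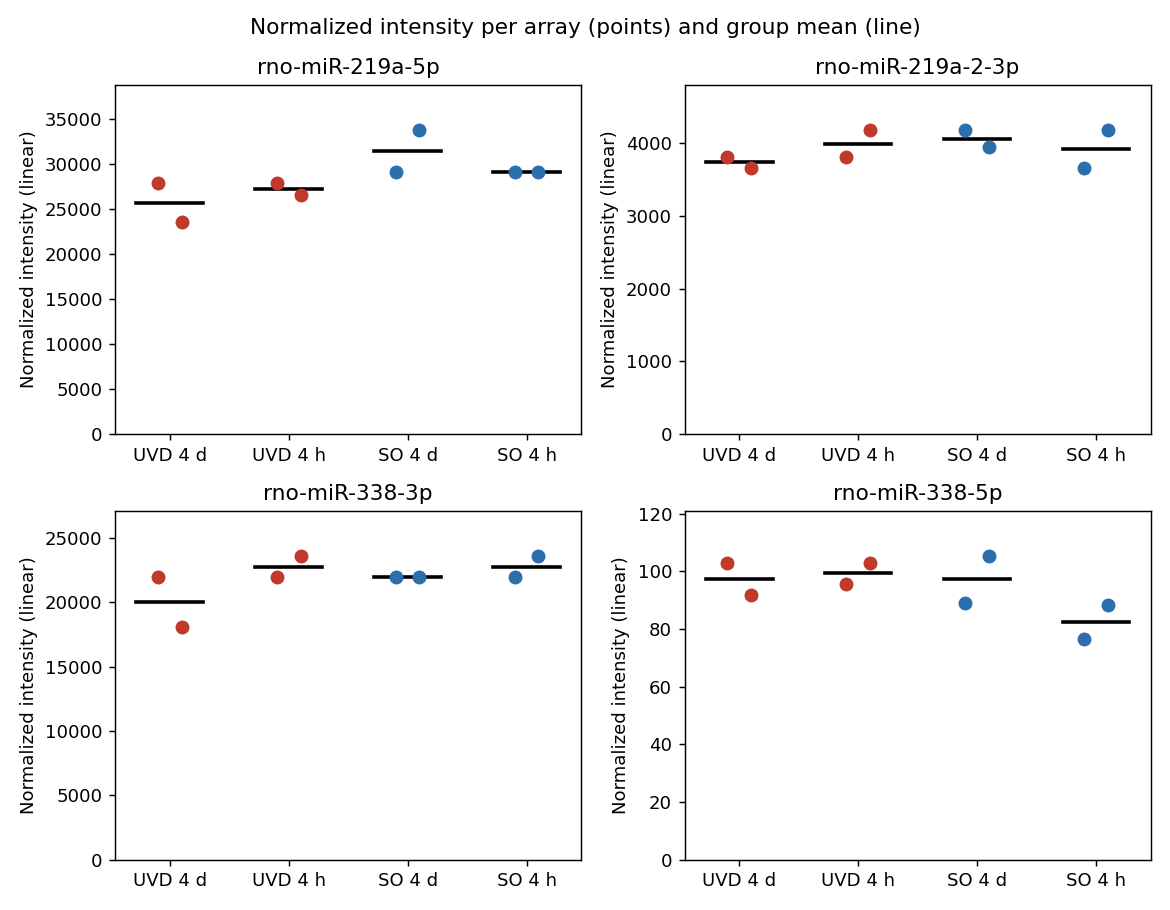
Quantile normalized intensity (linear, from 0) of the 4 detected miRNAs on each array; points are arrays, lines the means of 2 arrays, and the groups are UVD 4 d, UVD 4 h, SO 4 d and SO 4 h from left to right. The 4 UVD arrays of rno-miR-219a-5p lie between 23574 and 27832, all below the SO arrays, at 29054 to 33707.

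The order of the group means was SO 4 d, SO 4 h, UVD 4 h, UVD 4 d for rno-miR-219a-5p, from high to low. They were 25703 ± 3011 in UVD 4 d and 27181 ± 921 in UVD 4 h, against 31381 ± 3290 in SO 4 d and 29054 ± 0 in SO 4 h (SD, n = 2 each). Each neighbor in that order differed by less than the residual SD of the model, 0.11 on the log2 scale. For rno-miR-219a-2-3p, rno-miR-338-3p and rno-miR-338-5p, neighboring groups overlapped in all cases but 1, which was SO 4 h below SO 4 d for rno-miR-338-5p, a step of 0.24 on the log2 scale.

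At 4 d, the limma estimate for rno-miR-219a-5p in UVD minus SO was -0.29 on the log2 scale, with an SE of 0.11 and a 95% confidence interval of -0.57 to -0.0052. This was a fold of 0.819, with an interval of 0.672 to 0.996. The unadjusted p was 0.0472 and the Benjamini-Hochberg adjusted p of limma was 0.745, so the difference did not pass the threshold of 0.05. rno-miR-219a-2-3p and rno-miR-338-3p had estimates of -0.12 and -0.14, with folds of 0.919 and 0.907. rno-miR-338-5p had an estimate of 0.0041, and its interval of 0.805 to 1.25 in fold covered both a decrease and an increase. limma called 0 of the 4 miRNAs and 0 of all 422 tested miRNAs (0%). At an unadjusted p under 0.05, 1 of the 4 stood beside 16 of 422 (3.79%). The arrays did not overlap for 2 of the 4, rno-miR-219a-5p and rno-miR-219a-2-3p, both lower in UVD, beside 29.4% of all tested miRNAs in either direction. The median of the 4 estimates was -0.13 and that of all tested miRNAs -0.024.

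rno-miR-219a-5p was one of the miRNAs that the study chose for follow-up from these same arrays. It was chosen for a lower value in UVD than in SO at 4 d, so its place here is not independent evidence of its direction. After qRT-PCR of MVNs from single animals, the study describes this miRNA as increased in UVD. That direction is opposite to the array estimates at 4 d, and the sign at 4 h depended on the scaling between arrays. The qRT-PCR also covered days between these timepoints and was scaled to a control RNA, so the measures are not alike. The study's text does not name the timepoints that differed. The UVD 4 d value of rno-miR-219a-5p rested unequally on the pools. The 2 UVD 4 d pools held both the highest and the lowest unnormalized signal of the 8 arrays, 36579 and 21678, and the other 6 arrays ranged between 23489 and 32455. The array with 36579, UVD 4 d replicate 1, was also the brightest. Its signals of all miRNAs summed to 789972, against 526349 to 646920 on the other arrays, and the other detected miR-219a and miR-338 miRNAs were highest on it too. Leaving out single arrays gave UVD minus SO estimates at 4 d of -0.42 to -0.17, with the smallest sizes of -0.17 without UVD 4 d replicate 2 and -0.18 without SO 4 d replicate 2, and with an adjusted p of 0.230 or more in each case.

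At 4 h, the UVD minus SO estimate for rno-miR-219a-5p was -0.097 (SE 0.11, limma adjusted p = 0.685), and for rno-miR-338-3p it was 0, with an interval of 0.826 to 1.21 in fold. rno-miR-219a-2-3p had an estimate of 0.031. The largest size was that of rno-miR-338-5p, at 0.27 (SE 0.12), a fold of 1.21 with an interval of 0.969 to 1.50 and a limma adjusted p of 0.346. limma called 0 of the 4, beside 0.474% of all tested miRNAs. At an unadjusted p under 0.05 there were 0 of the 4, beside 17.1% of all. The arrays did not overlap for 2 of the 4, rno-miR-219a-5p (lower in UVD) and rno-miR-338-5p (higher in UVD), beside 50.9% of all tested miRNAs, so this share was that of the whole array.

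Averaged over both timepoints, UVD minus SO was -0.19 for rno-miR-219a-5p, with an SE of 0.079, a confidence interval of -0.39 to 0.0078 and a limma adjusted p of 0.351. The other 3 estimates were -0.045 for rno-miR-219a-2-3p, -0.071 for rno-miR-338-3p and 0.14 for rno-miR-338-5p. limma called 0 of the 4, beside 0% of all tested miRNAs, and the share at an unadjusted p under 0.05 was 0 of the 4, beside 13% of all.

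**Figure D2:**
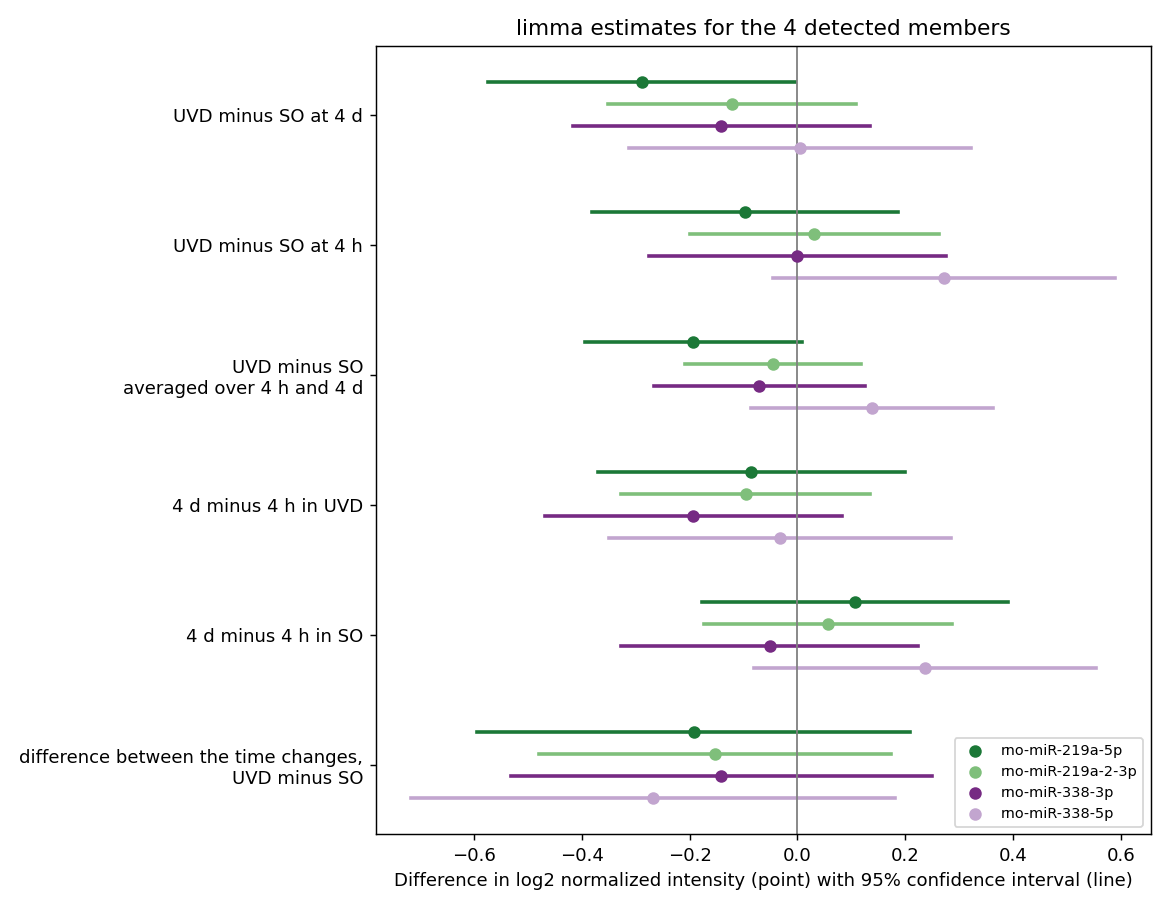
limma estimates (points, log2 scale) and 95% confidence intervals (lines) for the 4 detected miRNAs in 6 comparisons, from top to bottom. The interval of rno-miR-219a-5p for UVD minus SO at 4 d, -0.57 to -0.0052, ends just below 0, and the other intervals include 0.

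No difference between the timepoints passed the test for the 4 miRNAs in either surgery. In UVD animals, 4 d minus 4 h was -0.085 for rno-miR-219a-5p, -0.096 for rno-miR-219a-2-3p, -0.19 for rno-miR-338-3p and -0.032 for rno-miR-338-5p, with limma adjusted p of 0.413 or more. All 4 estimates were below 0, beside 51.2% of all tested miRNAs, but without normalization all 4 were above 0, at 0.13 to 0.24, when the median of all tested miRNAs was 0.26, and without UVD 4 d replicate 2 rno-miR-219a-5p and rno-miR-338-5p were above 0, at 0.033 and 0.049. Without UVD 4 h replicate 2 rno-miR-338-5p was above 0 too, at 0.023. In SO animals, 4 d minus 4 h was 0.11, 0.057 and 0.24 for rno-miR-219a-5p, rno-miR-219a-2-3p and rno-miR-338-5p, and -0.052 for rno-miR-338-3p, with limma adjusted p of 0.327 or more. The arrays of the timepoints did not overlap for 0 of the 4 in UVD, beside 44.3% of all tested miRNAs. In SO this held for 1 of the 4, rno-miR-338-5p (higher at 4 d), beside 54.3% of all.

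The difference between the time changes, UVD minus SO, was -0.19 for rno-miR-219a-5p, -0.15 for rno-miR-219a-2-3p, -0.14 for rno-miR-338-3p and -0.27 for rno-miR-338-5p, with limma adjusted p of 0.590 or more. limma called 0 of the 4 miRNAs in each time comparison. The share of all tested miRNAs it called was 0% for 4 d minus 4 h in UVD, 1.66% in SO, 1.66% averaged over UVD and SO and 0.237% for the difference between the time changes. At an unadjusted p under 0.05 there were 0 of the 4 in each of these comparisons, beside 15.4%, 23.7%, 28% and 8.77% of all. The methods' t-test on the same values gave 0 of the 4 after Benjamini-Hochberg adjustment in the 4 comparisons of 2 groups. At the looser limit of the methods, an unadjusted p under 0.15, it gave 1 of the 4 for UVD minus SO at 4 d, rno-miR-219a-2-3p, beside 14% of all tested miRNAs, and 2 of the 4 at 4 h, rno-miR-219a-5p and rno-miR-338-5p, beside 31.3% of all. It gave 0 of the 4 for 4 d minus 4 h, beside 27% of all in UVD and 34.1% in SO. The study made its selection on the authors' normalized values, which differ from those used here. At the limit of 0.15 it picked rno-miR-219a-5p for UVD against SO at 4 d. The UVD minus SO difference in the authors' values was -0.36 on the log2 scale.

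How low rno-miR-219a-5p lay in UVD depended on the scaling between arrays. The 6 scalings were quantile normalization, each array's 75th percentile over the miRNAs detected on all arrays or over all miRNAs, no normalization, normexp background correction of the spot signals, and the authors' normalized values. At 4 d, UVD minus SO was below 0 under all 6, between -0.36 and -0.16. At 4 h it was below 0 under 4 of 6, and 0.072 and 0.099 with the 75th percentile scalings. Those 2 scalings also placed the median of all tested miRNAs at 0.12 and 0.15 at 4 h, a shift of 0.13 and 0.16 from quantile normalization, and without normalization the median moved by 0.18 at 4 d and -0.10 at 4 h. Relative to the median of all tested miRNAs, rno-miR-219a-5p was lower in UVD under all 6 scalings, with differences of -0.35 to -0.26 at 4 d and of -0.12 to -0.048 at 4 h. The 75th percentile scalings and no normalization differ only by a factor per array. Relative to the median they therefore give nearly the same value for any miRNA, here -0.32 at 4 d. Their agreement is not separate support. Between 0.474% and 9.0% of the tested miRNAs had a lower estimate at 4 d, and between 12.1% and 39.3% at 4 h. The 4 UVD and 4 SO arrays were apart under 3 of the 6 scalings, namely quantile normalization, normexp and the authors' values, which all rest on quantile normalization.

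**Figure D3:**
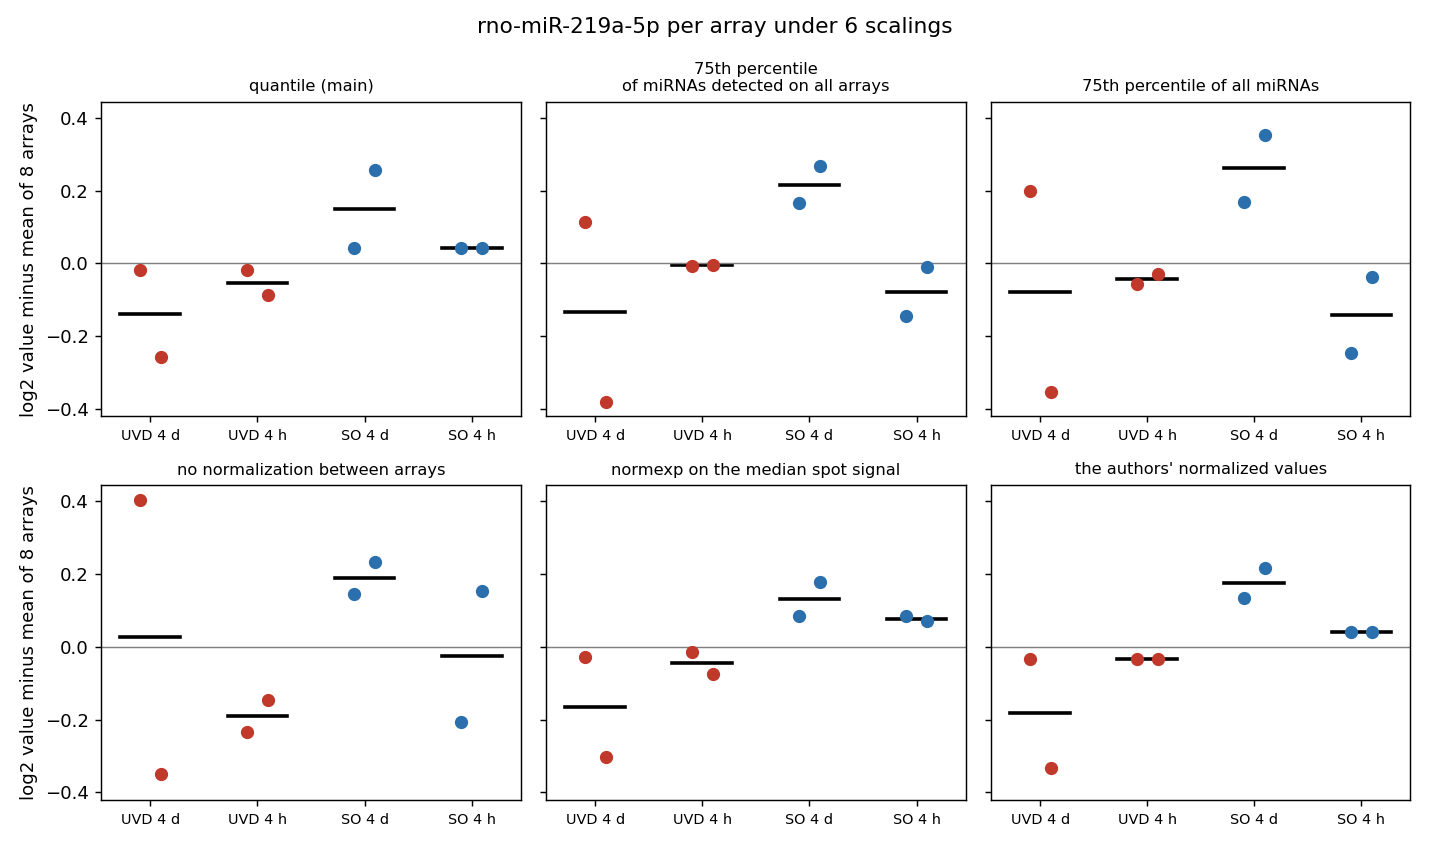
log2 value of rno-miR-219a-5p on each array minus its mean over the 8 arrays, under the 6 scalings; points are arrays, lines the means of 2 arrays. With the 75th percentile scalings the UVD 4 h arrays are above the SO 4 h arrays by 0.072 and 0.099 on average, while the UVD 4 d mean is below the SO 4 d mean in every panel.

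Relative to that median, rno-miR-219a-2-3p and rno-miR-338-3p were lower in UVD at 4 d under all 6 scalings, with differences of -0.20 to -0.097 for rno-miR-219a-2-3p and of -0.14 to -0.090 for rno-miR-338-3p. At 4 h rno-miR-219a-2-3p was higher in UVD under all 6, by 0.035 to 0.15, and rno-miR-338-3p was lower under 1 of 6. rno-miR-338-5p was higher in UVD at 4 h under all 6, by 0.081 to 0.29, and at 4 d it was lower under 4 of 6. Relative to that median, the sign at 4 d was thus shared by 3 of the miRNAs under all 6 scalings. The estimates themselves did not share it without normalization, at -0.16 for rno-miR-219a-5p, 0.029 for rno-miR-219a-2-3p and 0.025 for rno-miR-338-3p. With quantile normalization, the estimate for rno-miR-338-3p was 0 without UVD 4 d replicate 2 and -0.29 without UVD 4 d replicate 1. At 4 h, relative to that median, rno-miR-219a-5p and rno-miR-219a-2-3p had opposite signs under all 6. The rno-miR-219a-5p signal could come from either miR-219a hairpin. Leaving out single arrays gave -0.070 to 0.13 for rno-miR-219a-2-3p at 4 h.

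The difference of the log2 signals of a pair of miRNAs on the same array does not depend on how bright the array was, so the change of that difference was compared between UVD and SO for all 6 pairs. An exact permutation test within each timepoint has 36 arrangements, so its smallest two-sided p is 0.0556, and no pair could reach 0.05. In the unnormalized signals, rno-miR-219a-5p (which either miR-219a hairpin could give) minus rno-miR-219a-2-3p was lower in UVD, with a difference of -0.19 (p = 0.0556, adjusted p = 0.167 over the 6 pairs, exact permutation). It was -0.19 at 4 d and -0.20 at 4 h. With quantile normalization the same change was -0.15 (p = 0.222, adjusted p = 0.267, exact permutation). It reached the smallest p under 5 of the 6 scalings, of which 3 give each array the same factor for every miRNA and so give the same value. rno-miR-219a-5p minus rno-miR-338-5p was lower in UVD under all 6, with differences of -0.33 to -0.23, and reached the smallest p each time.

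rno-miR-219a-5p minus rno-miR-338-3p was lower in UVD, with differences of -0.17 to -0.12 under the 6 scalings, and its p was 0.111 or more (exact permutation). rno-miR-338-3p minus rno-miR-338-5p, the arms of Mir338, differed by -0.21 to -0.053 in UVD minus SO. rno-miR-219a-2-3p minus rno-miR-338-5p differed by -0.18 to -0.063. rno-miR-219a-2-3p minus rno-miR-338-3p was within -0.044 and 0.050 and took both signs. The smallest adjusted p of any pair was 0.111, in the normexp values.

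**Figure D4:**
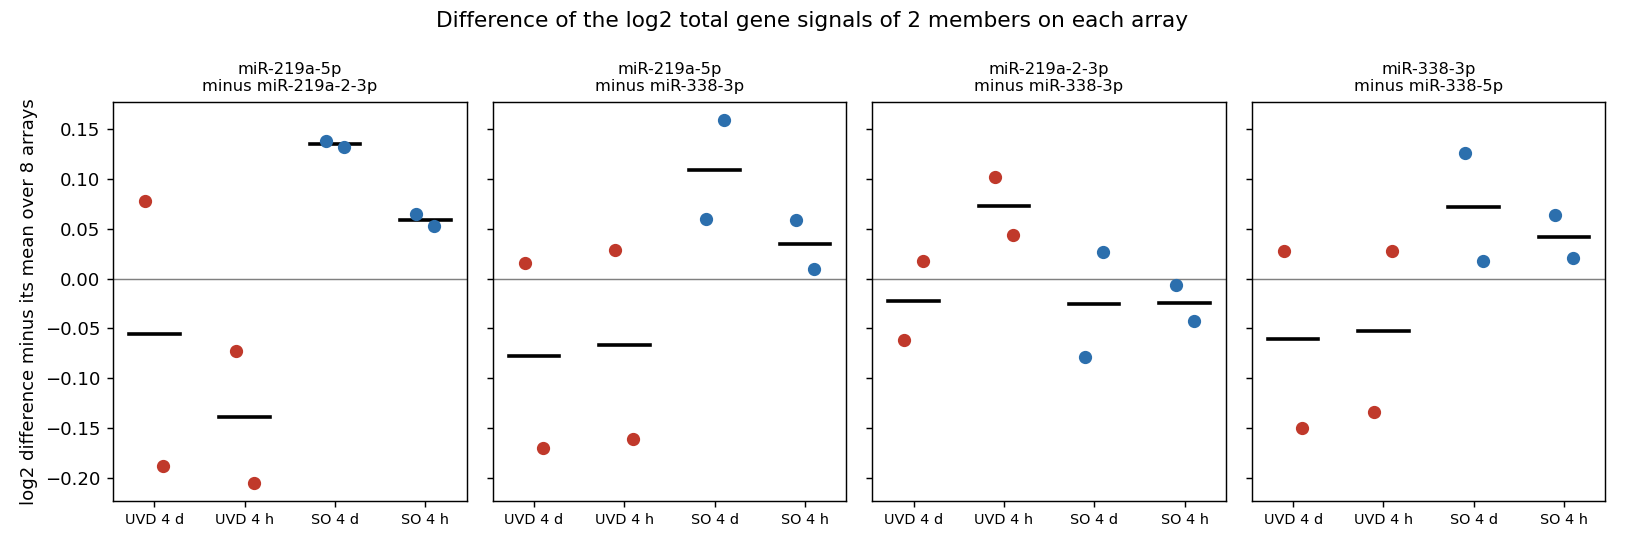
Difference of the unnormalized log2 signals of 2 miRNAs on each array, minus its mean over the 8 arrays, for 4 of the 6 pairs; points are arrays, lines the means of 2 arrays. In the left panel the UVD arrays lie between -0.20 and 0.078 and the SO arrays between 0.052 and 0.14, with 1 UVD 4 d array inside the SO range.

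The probes of rno-miR-219a-5p gave close values, and those of rno-miR-338-5p differed in sign at 4 d. rno-miR-219a-5p had 2 probes with 16 spots per array in all, and the spots of a probe varied by a median coefficient of variation of 2.41% on an array. The UVD minus SO estimates at 4 d were -0.27 (SE 0.13) and -0.23 (SE 0.11) for its probes, each with a limma adjusted p of 0.681. Both probes had an estimate below 0 at 4 h too, at -0.092 and -0.049. The median coefficient of variation was 5.59% for rno-miR-219a-2-3p, 6.71% for rno-miR-338-3p and 7.60% for rno-miR-338-5p. rno-miR-338-5p had 4 probes, of which 1 had no spot well above background on any array and 1 had a mean spot signal of 10.2 to 19.3. The other 2 carried most of its signal, at 128.8 to 214.8. Its 3 probes with any spot well above background gave UVD minus SO at 4 h of 0.26, 0.22 and 0.20, and at 4 d of -0.088, -0.042 and 0.076. The first value of each set is that of the dim probe, with a mean spot signal of 10.2 to 19.3. That probe had 1 of 4 spots well above background on UVD 4 h replicate 2 and 2 of 4 on SO 4 h replicate 1.

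Over the 8 arrays, the unnormalized signals of the 4 miRNAs had Pearson's r of 0.758 to 0.972 between pairs, and the quantile normalized values had r of 0.109 to 0.680. These points share the arrays and their brightness and are given as a description. The tested miRNAs outside the family with the most similar quantile normalized pattern were rno-miR-33-5p, rno-miR-376c-3p and rno-miR-339-3p for rno-miR-219a-5p, with r of 0.947, 0.914 and 0.840 over 8 arrays. For rno-miR-219a-2-3p they were rno-miR-99a-5p, rno-miR-151-5p and rno-miR-107-3p (r of 0.878, 0.843 and 0.834). For rno-miR-338-3p they were rno-miR-379-3p, rno-miR-34a-5p and rno-miR-183-3p (r of 0.980, 0.916 and 0.906), and for rno-miR-338-5p rno-miR-340-5p, rno-miR-1b and rno-miR-100-5p (r of 0.916, 0.901 and 0.895). No miRNA was in more than 1 of these lists.

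Other miRNAs with known roles in the oligodendrocyte lineage were read from the same fit, and limma called 0 of them in UVD minus SO at either timepoint and 0 in 4 d minus 4 h. In UVD minus SO, 0 of them had an unadjusted p under 0.05 at either timepoint. The 4 miRNAs known to promote oligodendrocyte differentiation, such as rno-miR-138-5p and rno-miR-32-5p, had a median UVD minus SO of -0.039 at 4 d and 0.0071 at 4 h, beside -0.024 and -0.014 for all tested miRNAs. rno-miR-32-5p had the largest size of these at 4 d, at -0.20 (limma adjusted p = 0.797). The 5 miRNAs linked to the progenitor state or opposing differentiation had medians of -0.038 and 0.042; the largest size at 4 h was 0.11, for rno-miR-9a-5p.

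Of the miR-17-92 cluster, which promotes proliferation of oligodendrocyte progenitors in the mouse, 4 miRNAs were listed, and limma called 0 of them in each comparison. Their median UVD minus SO was 0.11 at 4 d and 0.036 at 4 h. Their median 4 d minus 4 h was 0.30 in UVD and 0.21 in SO, beside -0.0099 and 0.0021 for all tested miRNAs, and all 4 estimates were above 0 in both. Of all tested miRNAs, 51.2% had an estimate below 0 in UVD and 47.6% in SO. rno-miR-20a-5p had 721 and 880 on the UVD 4 d arrays, against 598 and 629 on the UVD 4 h arrays, and 721 and 728 on the SO 4 d arrays, against 571 and 598 on the SO 4 h arrays. The 4 d arrays were above the 4 h arrays in both surgeries. The arrays of the timepoints did not overlap, in either direction, for 44.3% of all tested miRNAs in UVD and 54.3% in SO. The estimates were 0.38 in UVD (limma adjusted p = 0.237) and 0.31 in SO (limma adjusted p = 0.169), and neither passed the threshold. rno-miR-17-5p had 0.36 in UVD and 0.21 in SO. At an unadjusted p under 0.05 there were 4 of 4 in UVD, beside 15.4% of all tested miRNAs, and 2 of 4 in SO, beside 23.7%. The 4 miRNAs belong to the same cluster, so they are not independent of each other. In the differentiation list, the median 4 d minus 4 h was 0.042 in UVD and 0.11 in SO, with 1 of 4 and 2 of 4 at that limit. Of its 4 estimates, 3 were above 0 in UVD and 2 in SO. The list linked to the progenitor state had medians of 0 and 0.054, with 1 of 5 and 0 of 5 at that limit.

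Markers of other cell types moved with some groups, and their part in the values of the miR-219a and miR-338 miRNAs was not tested. The summed intensity of the 4 oligodendrocyte miRNAs was 45374 to 53704 in UVD 4 d and 53697 to 54387 in UVD 4 h, against 55271 to 59718 in SO 4 d and 54738 to 56896 in SO 4 h. The 5 markers of choroid plexus and ciliated ependyma, led by rno-miR-204-5p, summed to 7324 to 9031 in UVD 4 d and 5888 to 6024 in UVD 4 h, against 6087 to 6409 in SO 4 d and 5172 to 5353 in SO 4 h; 4 of the 5 were detected on all arrays. These sums were higher in UVD at both timepoints. At each timepoint 4 of the 5 markers had a UVD minus SO estimate above 0 and 1 below. The 6 neuronal markers were all detected on all arrays and summed to 38831 to 41831 in UVD 4 d and 34683 to 36935 in UVD 4 h, against 35826 to 38372 in SO 4 d and 36141 to 39305 in SO 4 h.

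The 5 microglia and leukocyte markers summed to 3853 to 4137 in UVD 4 d and 3444 to 3497 in UVD 4 h, against 3665 to 3824 in SO 4 d and 3161 to 3178 in SO 4 h. These sums were higher at 4 d in both surgeries. All 5 markers had a 4 d minus 4 h estimate above 0 in UVD, and in SO 4 were above 0 and 1 below. The 3 vessel markers summed to 7348 on each UVD 4 d array and 7311 to 7618 in UVD 4 h, against 7952 to 8153 in SO 4 d and 7675 to 7838 in SO 4 h. The 3 blood markers summed to 869 to 1277 in UVD 4 d and 739 to 939 in UVD 4 h, against 1012 to 1054 in SO 4 d and 928 to 950 in SO 4 h. In UVD minus SO, limma called 0 of the markers in these lists at either timepoint. At an unadjusted p under 0.05 there were at 4 d 1 choroid plexus and ependyma marker and 1 oligodendrocyte marker, rno-miR-219a-5p, beside 3.79% of all tested miRNAs. At 4 h there were 2 each of the neuronal, the microglia and leukocyte, and the choroid plexus and ependyma markers, beside 17.1% of all. For 4 d minus 4 h in SO, limma called 2 neuronal markers, rno-miR-137-3p and rno-miR-7a-5p (both lower at 4 d), and 1 choroid plexus and ependyma marker, rno-miR-34c-5p (higher at 4 d), beside 1.66% of all. Averaged over UVD and SO it called rno-miR-137-3p, rno-miR-34c-5p and the leukocyte marker rno-miR-142-5p (higher at 4 d), beside 1.66% of all, and in UVD alone 0 of the markers, beside 0% of all. Of the 6 neuronal markers, 3 had a 4 d minus 4 h estimate above 0 in SO and 3 below 0, and the same held averaged over UVD and SO.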

How the data were processed

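Per the labels, total RNA of left MVN pools was labelled with Cy3 and hybridized to rat miRNA arrays. The deposited scanner files (Agilent Feature Extraction 10.7.3.1) give background-corrected intensity per spot and a total gene signal per miRNA; the authors also deposited a table of intensity values, quantile normalized according to their methods, with a median of 45.5 on every array. Total gene signals were quantile normalized, values under 1 were set to 1, and log2 was taken. A miRNA entered the tests where both arrays of some group flagged it as detected, and these 422 were fitted with limma 3.58.1 in R 4.3.3 (4 group means, eBayes), with Benjamini-Hochberg adjustment over all of them and a threshold of 0.05. The fit was tested on simulated data. Probes with no spot well above background gave no probe estimate.

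Groups were those of the labels, with 2 arrays of 3 pooled animals each, so p-values measure the spread between these pools. Named miRNAs were all miR-219a and miR-338 members, their antisense relatives, the 3 most correlated miRNAs of each, and the largest changes of the lineage lists. The members and lists were chosen with earlier results of these data known. Alternatives were the scalings, the filter, the floor, an intensity trend, the methods' t-test (limit 0.15), a replicate block, each probe alone and leaving out each array. Sequences came from the RefSeq tables.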

Additional observations from a re-analysis of the deposited data

How the results depend on the processing

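At an adjusted p under 0.05, the number of the 4 miRNAs called stayed 0 in all 7 comparisons, under each alternative that kept all 8 arrays. The calls were those of limma, or of the methods' t-test where that was the alternative. Over the alternatives the number of all miRNAs called ranged from 0 to 5 (UVD minus SO at 4 d), 0 to 10 (4 h), 0 to 7 (averaged), 0 to 11 (4 d minus 4 h in UVD), 0 to 21 (in SO), 0 to 67 (averaged) and 0 to 7 (difference between the time changes). Of 502 alternative estimates for single miRNAs, 36 changed sign, and the cause was not tested; none was called. Without normalization, the estimates that changed sign were 0.029 (rno-miR-219a-2-3p) and 0.025 (rno-miR-338-3p) for UVD minus SO at 4 d, 0.031 (rno-miR-219a-2-3p) averaged, 0.22, 0.13, 0.23 and 0.24 for 4 d minus 4 h in UVD (rno-miR-219a-5p, rno-miR-219a-2-3p, rno-miR-338-3p, rno-miR-338-5p), 0.14 in SO (rno-miR-338-3p), and 0.0031, 0.089 and 0.13 for the difference between the time changes (rno-miR-219a-5p, rno-miR-338-3p, rno-miR-338-5p). With the 75th percentile over miRNAs detected on all arrays or over all miRNAs they were -0.030 and -0.019 (rno-miR-338-5p, UVD minus SO at 4 d), 0.072 and 0.099 (rno-miR-219a-5p at 4 h), 0.056 and 0.074 (rno-miR-219a-2-3p averaged), 0.0051 and 0.024 (rno-miR-338-3p averaged), and 0.22 and 0.33 (rno-miR-338-3p, 4 d minus 4 h in SO). With the authors' values they were -0.055 (rno-miR-338-5p, UVD minus SO at 4 d), and 0.046 and 0.16 (rno-miR-338-3p, 4 d minus 4 h in UVD and in SO); the change of rno-miR-219a-2-3p minus rno-miR-338-3p was -0.044 there. Single probes of rno-miR-338-5p gave -0.088 and -0.042 (UVD minus SO at 4 d) and 0.0084 (4 d minus 4 h in UVD). Leaving out single arrays gave -0.12 to 0.12 (rno-miR-338-5p, UVD minus SO at 4 d), -0.070 to 0.13 (rno-miR-219a-2-3p at 4 h), -0.10 to 0.0016 (rno-miR-219a-2-3p averaged), -0.21 to 0.033 and -0.11 to 0.049 (rno-miR-219a-5p and rno-miR-338-5p, 4 d minus 4 h in UVD) and -0.043 to 0.15 (rno-miR-219a-2-3p in SO).

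Same-numbered arrays did not deviate together (correlations of -0.25 to 0.19 over 6 pairs of groups), so the numbers pair no samples. With the replicate block, rno-miR-219a-5p kept -0.29 for UVD minus SO at 4 d with a limma adjusted p of 0.827, and the count of all miRNAs called was 2 in place of 7 for 4 d minus 4 h in SO and 0 in place of 7 averaged over UVD and SO. The 1 probe of rno-miR-338-5p with no spot well above background gave no value, and the comparisons averaged over groups had no methods' t-test.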
